A study of Mus musculus with 6 samples.

Results

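Glycolysis, pyruvate and glycogen enzymes are the genes described here, in the urothelium and the mesenchyme of the embryonic mouse bladder. The 36 members were taken from a list by symbol, and 31 of them had a probe set that the platform's annotation gives to that symbol alone, among 18193 genes tested. Gpi1, Eno1, Pfkfb1 and G6pdx were not analysed here, and Gapdh was read only from 3 control probe sets and not tested. Both groups were wild-type FVB/N embryos of unknown sex at embryonic day 13 (Theiler stage 21). The bladder epithelium, labelled urothelium, gave arrays 5, 7 and 8, and the bladder mesenchyme gave arrays 1, 2 and 4, so n = 3 in each group. Both compartments had lain in 20 µM EDTA, a chelator that loosens epithelia, for 20 minutes before a needle parted them, and their RNA passed through 2 rounds of amplification before it met the Affymetrix array. The samples are labelled as not pooled, but no label ties an array to its own embryo or litter, so p-values measure the spread between these arrays, which may be technical.

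Glycolysis turns glucose into pyruvate in the cytosol and yields ATP without oxygen. Pyruvate then either becomes lactate through lactate dehydrogenase or enters the mitochondrion, where the pyruvate dehydrogenase complex makes acetyl-CoA and a family of kinases holds that complex back. Glycogen is the stored form of glucose, built by synthase and branching enzyme and taken apart by phosphorylase. Most steps are served by several isozymes, classically named after adult liver, muscle or brain, while embryonic tissues are known to express mixtures of them and to rely heavily on glycolysis.

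The compartments were well separated on epithelial, fibroblast, endothelial and smooth muscle markers. Of 6 epithelial markers, 6 were higher in urothelium, with summed signals of 271192 to 289481 in urothelium and 7884 to 10574 in mesenchyme. Of 6 fibroblast markers 6 were higher in mesenchyme, with sums of 9242 to 13264 in urothelium and 229914 to 273506 in mesenchyme. Markers of endothelium (sums of 520 to 702 in urothelium and 11421 to 15180 in mesenchyme) and of smooth muscle (3031 to 3376 in urothelium and 70254 to 96496 in mesenchyme) also lay on the mesenchymal side, with 6 of 6 past the test in both lists. Other lists were less clear by the test. Of 6 macrophage markers 2 were higher in mesenchyme, and their sums were 908 to 997 in urothelium and 5629 to 8789 in mesenchyme. Of 5 red cell markers tested 2 were higher in mesenchyme. The red cell marker Hbb-y was bright in both, with means of 74564 in urothelium and 70227 in mesenchyme. Of 4 mesothelium markers 1 was higher in urothelium and 2 in mesenchyme, and of 4 hindgut markers 2 were higher in urothelium. No marker was at 0, since array signals stay above 0 even for dim probe sets. Urothelium 5 and mesenchyme 1 stood apart on beta-actin, where the 3' control probe set exceeded the 5' one by 8.603 and 8.398 times, against 4.89 on urothelium 7, 2.29 on urothelium 8, 2.37 on mesenchyme 2 and 3.94 on mesenchyme 4. A high ratio marks amplified RNA that is short towards the 5' end. On Gapdh the same ratio was 26.28 on urothelium 5, 14.98 on urothelium 7 and 9.77 on urothelium 8, against 11.48, 14.15 and 15.73 on mesenchyme 1, 2 and 4, so urothelium 5 alone was the highest of its compartment on both controls.

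Of the 31 members, 1 was higher in urothelium and 4 were higher in mesenchyme, while 26 did not pass the test. Aldoc, an aldolase gene, was the member higher in urothelium. The enolase genes Eno2 and Eno3, the phosphofructokinase gene Pfkm and the glycogen phosphorylase gene Pygl were the members higher in mesenchyme. The members past limma's test make up 16.1% of those tested, close to 14.7% of all genes, of which 5.8% were higher in urothelium and 8.91% in mesenchyme. The share of members past the test was thus near the background of this comparison. With arrays centred on their medians the split of all genes turned round, with 1689 higher in urothelium and 1181 in mesenchyme in place of 1055 and 1621, and that of the members was 2 and 3. The median log2 difference of the members was −0.26, and that of all genes −0.11, on the scale log2(signal + 45), which understates differences of dim genes. Differences are urothelium minus mesenchyme, and in bulk tissue fewer cells that express a gene and less RNA per cell cannot be told apart. The arrays of the compartments did not overlap for 11 of 31 members (4 higher in urothelium, 7 in mesenchyme), where 30.1% of all genes had none. Without both urothelium 5 and mesenchyme 1, 2 members were higher in urothelium and 4 in mesenchyme. Of all 18193 genes, 1225 and 1731 were so in that setting.

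**Figure D1:**
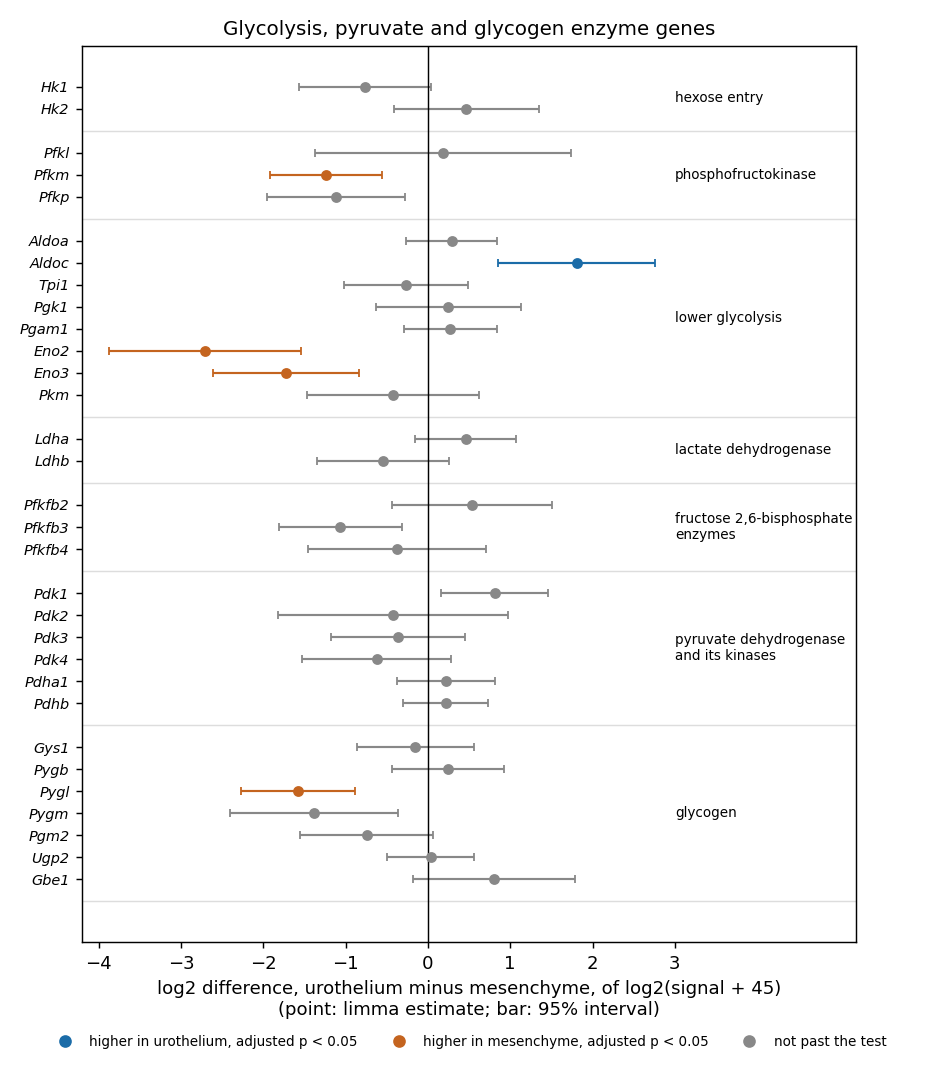
Log2 difference (urothelium minus mesenchyme, log2(signal + 45) scale, horizontal axis) of each of 31 members, grouped by pathway step down the page. Points are limma estimates and bars 95% intervals. Aldoc at 1.81 is the member past the test to the right of 0, and Eno2 at −2.71, Eno3 at −1.72, Pygl at −1.58 and Pfkm at −1.23 are those to the left.

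Glycolytic genes are classical targets of the hypoxia-inducible factors, whose response element holds the letters ACGTG. Upstream windows of 250 bases before the annotated start were read for all 31 tested members from the RefSeq promoter table (GRCm38.p6), using the window listed first for genes with several. ACGTG on either strand was in 15 of 31 windows, or 48.4%, against 19.8% of the windows of 14452 genes on the array. The GC box GGGCGG, which Sp-family factors bind, was in 54.8% of the members' windows and in 49.9% of those of all genes. TATAAA was in 3.23% and 9.02%, and both were also read on either strand. Letters alone are no evidence of binding, and no test was made of these shares. The 5 windows below show the isozyme gene higher in urothelium (Aldoc), a pair of those higher in mesenchyme (Pygl and Eno2) and a pair of classical hypoxia targets, not past the test, whose windows hold ACGTG more than once (Ldha and Pgk1). Capitals mark ACGTG and GGGCGG on either strand, and each sequence runs 5′ to 3′ on the strand of its gene.
Aldoc, chr11:78322823-78323072, plus strand: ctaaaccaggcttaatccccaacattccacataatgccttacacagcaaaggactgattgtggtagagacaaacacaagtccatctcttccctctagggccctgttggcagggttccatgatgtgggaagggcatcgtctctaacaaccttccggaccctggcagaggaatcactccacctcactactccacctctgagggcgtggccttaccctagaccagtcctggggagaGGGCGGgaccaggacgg
Pygl, chr12:70227684-70227933, minus strand: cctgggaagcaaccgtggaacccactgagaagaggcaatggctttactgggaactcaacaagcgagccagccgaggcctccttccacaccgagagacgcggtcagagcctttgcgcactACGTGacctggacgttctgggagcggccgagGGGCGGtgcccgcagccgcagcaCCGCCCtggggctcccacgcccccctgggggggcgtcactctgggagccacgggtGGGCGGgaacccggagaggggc
Eno2, chr6:124769674-124769923, minus strand: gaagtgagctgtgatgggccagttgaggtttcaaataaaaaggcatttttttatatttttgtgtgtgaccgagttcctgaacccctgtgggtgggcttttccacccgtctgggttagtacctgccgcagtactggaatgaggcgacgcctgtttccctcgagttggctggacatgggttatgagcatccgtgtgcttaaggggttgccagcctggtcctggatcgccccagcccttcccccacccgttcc
Ldha, chr7:46845554-46845803, plus strand: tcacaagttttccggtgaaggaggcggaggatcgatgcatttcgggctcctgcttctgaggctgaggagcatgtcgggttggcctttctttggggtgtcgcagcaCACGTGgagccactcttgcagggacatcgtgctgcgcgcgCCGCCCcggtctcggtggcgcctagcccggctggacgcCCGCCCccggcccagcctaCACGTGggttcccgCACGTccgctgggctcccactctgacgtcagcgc
Pgk1, chrX:106186850-106187099, plus strand: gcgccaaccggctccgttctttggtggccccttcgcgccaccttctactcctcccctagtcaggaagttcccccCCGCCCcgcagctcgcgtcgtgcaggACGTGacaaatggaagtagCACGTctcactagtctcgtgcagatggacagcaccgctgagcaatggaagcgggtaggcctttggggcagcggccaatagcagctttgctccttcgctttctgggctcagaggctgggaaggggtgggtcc
Among the members past the test, Pygl and Pfkm had ACGTG in the window while Aldoc, Eno2 and Eno3 did not. In the Ldha window 5 matches were counted, because the palindrome CACGTG matches once on each strand, and the Pgk1 window held 2. The Eno2 window held neither motif and was the members' window with TATAAA, there as the reverse complement TTTATA on the strand shown.

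Hexokinases trap glucose in the cell as its phosphate. Hk1, the widely expressed isozyme, had signals of 936, 1111 and 1597 on urothelium 5, 7 and 8, against 1356, 2262 and 2750.0 on mesenchyme 1, 2 and 4. Hk2, the isozyme known for its inducible expression, had 2877, 4369 and 8517 in urothelium, against 4543, 2487 and 3541 in mesenchyme. The groups overlapped for both genes, and neither passed the test, with log2 differences of −0.76 ± 0.36 for Hk1 and 0.47 ± 0.40 for Hk2 (SE, limma adjusted p = 0.226 and 0.544). Hk2 differed by 0.051 without urothelium 8, by 0.24 without mesenchyme 2 and by 1.029 without both urothelium 5 and mesenchyme 1.

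Phosphofructokinase commits the sugar to glycolysis and is assembled from 3 kinds of subunit, encoded by Pfkl, Pfkm and Pfkp. Pfkm, the muscle-type subunit, was lower in urothelium, with 1229, 1819 and 2276 on the urothelium arrays, against 4420, 4520 and 3472 on the mesenchyme arrays. The highest urothelium array thus lay below the lowest mesenchyme array. Its means were 1774 ± 525 in urothelium and 4138 ± 579 in mesenchyme (SD, n = 3), a log2 difference of −1.23 ± 0.31 (SE, limma adjusted p = 0.0201). The call was lost without mesenchyme 2 (−1.17), urothelium 5 (−0.998) or urothelium 7 (−1.27), and with arrays centred on their medians (−0.85, adjusted p = 0.0727).

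Pfkp, the platelet-type subunit, had 403, 483 and 262 in urothelium, against 899, 875 and 808 in mesenchyme. These groups did not overlap either, but the log2 difference of −1.12 ± 0.38 did not pass (limma adjusted p = 0.0815), except among genes above the median signal (adjusted p = 0.049) or without the intensity trend (adjusted p = 0.0414). A further Pfkp probe set, dim throughout, pointed the other way, with 130, 86.6 and 118 in urothelium, against 27.3, 57.5 and 42.8 in mesenchyme. When the 3 probe sets were averaged the log2 difference was −0.23 (limma adjusted p = 0.734). Pfkl, the liver-type subunit, was the member with the widest spread: 1946, 2312 and 8892 in urothelium, against 974, 6845 and 4046 in mesenchyme. Its log2 difference of 0.18 had a 95% interval of −1.37 to 1.73, so these arrays leave both directions possible, and it was −0.61 without mesenchyme 1 and −0.50 without urothelium 8.

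The bifunctional Pfkfb enzymes make and break fructose 2,6-bisphosphate, the strongest allosteric activator of phosphofructokinase. Pfkfb3, the isozyme with the most kinase-biased activity, had 1366, 912 and 1177 in urothelium, against 3482, 2190 and 1872 in mesenchyme. All 3 urothelium arrays lay below the mesenchyme arrays, and the log2 difference of −1.07 ± 0.34 was just outside the threshold (limma adjusted p = 0.0616), but inside it among genes above the median signal (adjusted p = 0.0496). Pfkfb2 had 3942, 1788 and 1755 in urothelium, against 2712, 976 and 1484 in mesenchyme. Pfkfb4 had 142, 358 and 448 in urothelium, against 266, 574 and 377 in mesenchyme, and the groups overlapped for both.

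Aldolase splits the hexose bisphosphate into 2 trioses. Aldoc, best known from brain, had 757, 1525 and 2003 on the urothelium arrays, against 441, 341 and 276 on the mesenchyme arrays. Every urothelium array exceeded every mesenchyme array. Means were 1428 ± 629 in urothelium and 353 ± 83.0 in mesenchyme (SD, n = 3), a log2 difference of 1.81 ± 0.43 (limma adjusted p = 0.016). The call was lost without mesenchyme 4 (1.66), urothelium 7 (1.71) or urothelium 8 (1.52). In the mean of its probe sets, the second of which stayed at or below 88.1 on every array, the difference was 0.99 (adjusted p = 0.134). Aldoa, the broadly expressed aldolase, had 12793, 12392 and 17365 in urothelium, against 11072, 12319 and 11077 in mesenchyme. These arrays did not overlap, yet by a small margin, and its log2 difference of 0.29 ± 0.25 did not pass (limma adjusted p = 0.552). The probe sets of Aldoa carry the suffix by which Affymetrix marks probes that may also bind other transcripts.

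The next steps showed no member past the test. Tpi1, the triose isomerase, had 9197, 10758 and 18939 in urothelium, against 10228, 18258 and 17349 in mesenchyme. Pgk1, the phosphoglycerate kinase that makes the first ATP of the pathway, had 87279, 63433 and 53913 in urothelium, against 109513, 42746 and 37992 in mesenchyme. Pgam1, the mutase that follows, had 24086, 17983 and 18891 in urothelium, against 20323, 14893 and 15381 in mesenchyme. For all of these genes the compartments overlapped, with limma adjusted p of 0.716 for Tpi1, 0.777 for Pgk1 and 0.594 for Pgam1. The 3' control probe set of Gapdh had 22845, 15651 and 22410 in urothelium, against 21068, 19723 and 18684 in mesenchyme. Its means were 20302 ± 4034 in urothelium and 19825 ± 1195 in mesenchyme, a log2 difference of 0.015 that was not tested. The middle and 5' control probe sets differed by −0.33 and −0.17, with overlapping arrays, and were not tested either.

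Enolase makes phosphoenolpyruvate, and both isozyme genes measured, Eno2 and Eno3, were lower in urothelium. Eno1 was not analysed here, so these genes do not describe the enolase step as a whole. Eno2, the enolase of neurons and neuroendocrine cells, had 21.3, 70.1 and 133 on the urothelium arrays, against 1272, 495 and 485 on the mesenchyme arrays. The urothelial signals were dim and the mesenchymal ones lay well above them. Means were 74.6 ± 55.7 in urothelium and 750 ± 452 in mesenchyme (SD, n = 3), a log2 difference of −2.71 ± 0.53 (limma adjusted p = 0.00485). The call held in the 13 alternatives that kept the gene, with differences between −3.5 and −1.79, the smallest in size with the median signal as pseudocount. The filter on dim genes removed it. Of 5 neuron and glia markers tested, 1, Stmn2, was higher in mesenchyme, and the summed signal of the list was 1062 to 1350 in urothelium and 1871 to 6437 in mesenchyme, highest on mesenchyme 1 as Eno2 was. The part of these cells in the difference of Eno2 was not tested.

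Eno3, the muscle enolase, had 722, 392 and 951 on the urothelium arrays, against 3205, 1986 and 1755 on the mesenchyme arrays. There was no overlap. Means were 688 ± 281 in urothelium and 2315 ± 779 in mesenchyme (SD, n = 3), a log2 difference of −1.72 ± 0.40 (limma adjusted p = 0.0141). Without urothelium 7 the difference was −1.39 and the call was lost (limma adjusted p = 0.0696), while it held in the other 13 alternatives. Of 8 skeletal muscle markers 0 passed limma's test (1 at an unadjusted p under 0.05), and their summed signal was 617 to 1072 in urothelium and 803 to 1668 in mesenchyme. The smooth muscle markers given above were higher in mesenchyme, as Eno3 was. Within mesenchyme Eno3 was highest on mesenchyme 1. The smooth muscle sum was lowest there, at 70254 against 96496 on mesenchyme 2 and 76984 on mesenchyme 4. The skeletal muscle sum was highest there, at 1668 against 946 on mesenchyme 2 and 803 on mesenchyme 4. The part of either kind of muscle cell in the difference of Eno3 was not tested.

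Pkm, whose product is pyruvate kinase, had 3344, 3576 and 11101 in urothelium, against 4172, 9966 and 7781 in mesenchyme. Its log2 difference of −0.42 ± 0.47 did not pass (limma adjusted p = 0.663). It was −0.98 without urothelium 8, −0.12 without urothelium 5 and −0.041 with arrays centred on their medians. The single probe set cannot tell the splice forms of this gene apart.

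**Figure D2:**
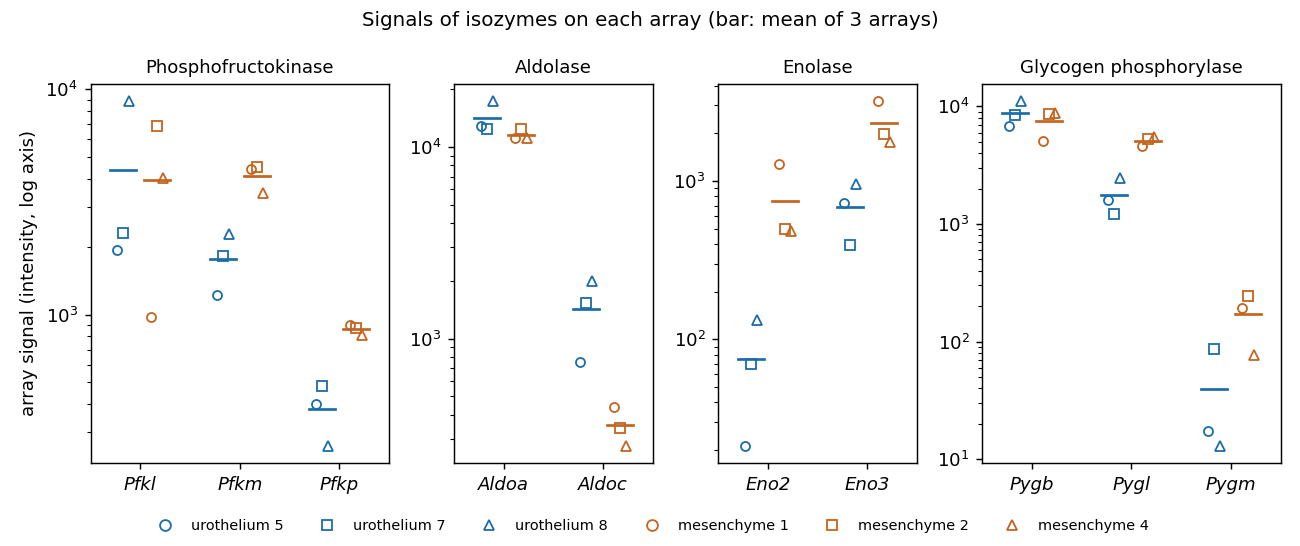
Array signal (intensity, log axis) of the phosphofructokinase, aldolase, enolase and glycogen phosphorylase isozyme genes, with urothelium arrays in blue left of mesenchyme arrays in orange and bars at the mean of 3 arrays. Pfkm, Pfkp, Eno2, Eno3 and Pygl show no overlap with mesenchyme on top, Aldoa and Aldoc show none with urothelium on top, and Pfkl, Pygb and Pygm overlap.

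At the end of the pathway lactate dehydrogenase interconverts pyruvate and lactate. Ldha, the subunit abundant in glycolytic tissue, had 45260, 31280 and 30769 in urothelium, against 32282, 24444 and 21271 in mesenchyme. Ldhb, the heart-type subunit, had 16710, 15509 and 13414 in urothelium, against 41148, 15259 and 17293 in mesenchyme. Log2 differences were 0.46 ± 0.28 for Ldha and −0.55 ± 0.36 for Ldhb, neither past the test (limma adjusted p = 0.36 and 0.413). The high Ldhb value rested on mesenchyme 1 and was seen in 3 of the 4 Ldhb probe sets. The remaining one gave 10838 on mesenchyme 1, below its 12781 on mesenchyme 2 and 14575 on mesenchyme 4.

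Pyruvate dehydrogenase kinases switch the mitochondrial complex off. Pdk1, the hypoxia-inducible kinase, had 5009, 6493 and 5645 on the urothelium arrays, against 4335, 3246 and 2350 on the mesenchyme arrays. No array overlapped, but the log2 difference of 0.81 ± 0.29 did not pass (95% interval 0.17 to 1.47, limma adjusted p = 0.1). A pair of other Pdk1 probe sets passed when every probe set was tested by itself, with log2 differences of 1.00 (adjusted p = 0.043) and 1.23 (adjusted p = 0.0247) in limma over 34945 probe sets. The second of these had 6115, 4319 and 5128 in urothelium, against 1632, 2325 and 2664 in mesenchyme. Pdk1 was also past the test with the mean of its probe sets (0.94), with arrays centred on their medians (1.198), without mesenchyme 1 (1.03) and without both urothelium 5 and mesenchyme 1 (1.12). In the other alternatives it did not pass, and it was 0.59 without mesenchyme 4 and 0.72 without urothelium 7.

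The other kinases did not share this lean. Pdk4, the kinase induced by fasting, had 426, 257 and 231 in urothelium, against 598, 426 and 429 in mesenchyme, a log2 difference of −0.62 ± 0.41 (limma adjusted p = 0.41). Pdk3 had 2155, 5380 and 5623 in urothelium, against 4410, 5768 and 5494 in mesenchyme. Pdk2 was dim, at 12.3 to 213 in urothelium and 42.3 to 286 in mesenchyme. The subunits of the enzyme these kinases act on did not pass, with Pdha1 differing by 0.22 ± 0.27 and Pdhb by 0.22 ± 0.24 on the log2 scale, with 95% intervals of −0.38 to 0.81 and −0.30 to 0.74.

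Glycogen phosphorylase releases glucose phosphate from the store. Pygl, the liver isozyme, had 1588, 1221 and 2457 on the urothelium arrays, against 4576, 5312 and 5497 on the mesenchyme arrays. The mesenchyme arrays were tightly grouped and all stood above the urothelium arrays. Means were 1755 ± 635 in urothelium and 5128 ± 488 in mesenchyme (SD, n = 3), a log2 difference of −1.58 ± 0.31 (limma adjusted p = 0.00528). It passed in all 14 alternatives, with differences between −1.84 and −1.19. Pygm, the muscle isozyme, was dim, with 17.2, 87.2 and 13.0 in urothelium, against 193, 246 and 77.2 in mesenchyme. Its log2 difference of −1.38 ± 0.46 did not pass (limma adjusted p = 0.0755), but did without mesenchyme 4 (−1.75) or without urothelium 7 (−1.76). Pygb, the brain isozyme, had 6846, 8440 and 11151 in urothelium, against 5052, 8670 and 8873 in mesenchyme, and its log2 difference was 0.24 ± 0.31.

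The enzymes that build glycogen did not pass. Ugp2, which makes the UDP-glucose donor, had 17715, 15865 and 14174 in urothelium, against 16790, 15858 and 13971 in mesenchyme, a log2 difference of 0.033 with a 95% interval of −0.49 to 0.56. Gys1, the synthase outside liver, had 2493, 1584 and 1470 in urothelium, against 2129, 2362 and 1603 in mesenchyme. Gbe1, the branching enzyme, had 465, 817 and 909 in urothelium, against 583, 237 and 402 in mesenchyme, with a log2 difference of 0.80 ± 0.45 (limma adjusted p = 0.314). Pgm2, a gene of the phosphoglucomutase family, had 4150, 4997 and 3192 in urothelium, against 11979, 4500 and 5846 in mesenchyme, with its highest signal on mesenchyme 1.

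Isozymes were compared with each other by their within-array log2 difference, which sets how the compartments differ for one gene against how they differ for the other and says nothing of which isozyme is the more abundant. Of 24 pairs in 8 families, 19 could be formed. The arrays of the compartments did not overlap for 7 of the 19, or 36.8%, where 35.1% of all pairs of genes had no overlap. With 3 arrays against 3, the two-sided exact permutation test cannot go below p = 0.1, which these 7 pairs reached, and after adjustment over the 19 pairs the exact permutation p was 0.271. So the pairs are given as a description.

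Pygb over Pygl was shifted towards urothelium by 1.82 on the log2 scale. The within-array log2 differences were 2.08, 2.75 and 2.16 in urothelium, against 0.14, 0.70 and 0.69 in mesenchyme. Aldoa over Aldoc was shifted the other way by −1.52 (−0.81 when probe sets were averaged), with 4.001, 2.99 and 3.09 in urothelium, against 4.52, 5.002 and 5.11 in mesenchyme. Ldha over Ldhb was shifted by 1.01, with 1.44, 1.01 and 1.195 in urothelium, against −0.35, 0.68 and 0.30 in mesenchyme. That shift was 0.725 without mesenchyme 1, where Ldhb was high, and 0.61 without both urothelium 5 and mesenchyme 1.

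In the regulatory families Pfkfb2 over Pfkfb3 was shifted by 1.602, with 1.499, 0.94 and 0.56 in urothelium, against −0.36, −1.13 and −0.33 in mesenchyme. Pdk1 over Pdk4 was shifted by 1.44 and Pdk1 over Pdk3 by 1.18. Eno2 over Eno3 was shifted by −0.99, a size that moved with the pseudocount, to −1.71 with 1 and to −0.26, with overlap, with the median signal. It was −0.545 without urothelium 5, where Eno2 was dimmest, and −0.367 without both urothelium 5 and mesenchyme 1. Pfkfb2 over Pfkfb3 overlapped in the mean of probe sets (1.12). In the phosphofructokinase family no pair was without overlap, and Pfkm over Pfkp differed by −0.12 between compartments.

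**Figure D3:**
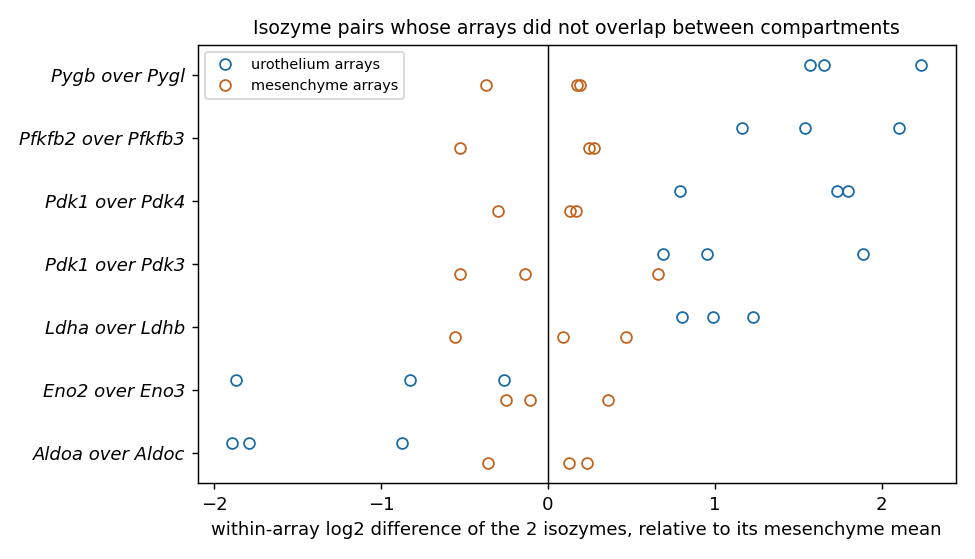
Within-array log2 difference of 2 isozymes (horizontal axis, set to 0 at the mean of the mesenchyme arrays) for the 7 pairs without overlap, with 3 urothelium arrays in blue above 3 mesenchyme arrays in orange. The shift runs to the right for Pygb over Pygl (1.82) and to the left for Eno2 over Eno3 (−0.99) and Aldoa over Aldoc (−1.52).

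Of 68 neighbouring genes of the same pathways 64 were tested, and 5 were higher in urothelium and 9 in mesenchyme, or 21.9% of them, against 14.7% of all genes. Their median log2 difference was −0.15. The neighbouring genes were listed with earlier results of these data known, so neither this share nor those by role below can be read as an excess. Among 6 transporters, Slc16a7, a monocarboxylate carrier of high affinity for pyruvate and lactate, had 4207, 7349 and 6836 in urothelium, against 672, 290 and 454 in mesenchyme (log2 difference 3.61 ± 0.37, limma adjusted p = 6.9e-05). Slc2a3, the high-affinity glucose transporter gene of neurons, had 1124, 1025 and 1328 in urothelium, against 4515, 5160 and 4573 in mesenchyme (−2.00 ± 0.27, limma adjusted p = 0.000467). Slc2a4, the insulin-responsive transporter gene of muscle and fat, was dim in urothelium, with 14.4, 53.8 and 175, against 1115, 470 and 402 in mesenchyme (−2.56 ± 0.57, limma adjusted p = 0.0107). Its call was lost without urothelium 7 (−2.49) and without both urothelium 5 and mesenchyme 1 (−1.70).

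Slc2a1, the glucose transporter gene of most embryonic cells, had 6588, 5870 and 7389 in urothelium, against 3610, 3662 and 4162 in mesenchyme. No array overlapped, yet the log2 difference of 0.79 ± 0.25 did not pass (limma adjusted p = 0.0605), except after quantile normalization (0.81) or with arrays centred on their medians (1.17). Mpc1, part of the mitochondrial pyruvate carrier, had 1324, 2792 and 2665 in urothelium, against 1624, 2545 and 3393 in mesenchyme and did not pass (limma adjusted p = 0.856). Of 7 genes of pyruvate entry, 8 other glycolytic isozymes and 8 genes of the pentose phosphate pathway, 0 passed limma's test. At an unadjusted p under 0.05 there were 2, 0 and 2 of them. The share of all genes under that threshold was not computed, so these counts have no background beside them.

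Of 15 other genes of glycogen metabolism, most of them regulators, 2 were higher in urothelium and 2 in mesenchyme. That is 26.7% of them, against 14.7% of all genes, in a list chosen with earlier results of these data known. Ppp1r3b, which brings protein phosphatase to glycogen in liver, had 6736, 10880 and 9831 in urothelium, against 1642, 2456 and 2544 in mesenchyme (log2 difference 2.02 ± 0.30, limma adjusted p = 0.000807). Ppp1r3c, a related targeting subunit, had 687, 83.2 and 261 in urothelium, against 1409, 2752 and 2487 in mesenchyme (−2.83 ± 0.58, limma adjusted p = 0.00689), and differed by −1.87 in the mean of its probe sets. Ppp1r3b and Ppp1r3c thus stood on opposite sides with no overlap of arrays. Ppp1r3d, another targeting subunit, had 1269, 1017 and 659 in urothelium, against 624, 324 and 563 in mesenchyme. Its arrays did not overlap, but it did not pass (0.90 ± 0.41, limma adjusted p = 0.203).

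Stbd1, a protein that tethers glycogen to membranes, had 1000.2, 613 and 934 in urothelium, against 8746, 7945 and 8413 in mesenchyme (−3.26 ± 0.29, limma adjusted p = 2.52e-05). Nhlrc1, the ubiquitin ligase malin, had 1307, 1004 and 1165 in urothelium, against 338, 565 and 470.0 in mesenchyme (1.28 ± 0.36, limma adjusted p = 0.0373), and that call was lost without any 1 of the 6 arrays. In gluconeogenesis, the bisphosphatase gene Fbp2 had 271, 512 and 426 in urothelium, against 21.7, 10.3 and 73.5 in mesenchyme (2.52 ± 0.44, limma adjusted p = 0.00242). With a pseudocount of 1 its difference was 3.87, and with the median signal 1.43. Pck2, the mitochondrial carboxykinase gene, had 1759, 3056 and 3098 in urothelium, against 4709, 10532 and 9559 in mesenchyme (−1.59 ± 0.37, limma adjusted p = 0.0127), a call lost without mesenchyme 2 (−1.38) or mesenchyme 4 (−1.45).

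Among 14 hypoxia factors and their targets outside the members, 1 was higher in urothelium and 4 in mesenchyme. That is 35.7% of them, against 14.7% of all genes, in a list chosen with earlier results of these data known. The 4 higher in mesenchyme include the factor gene Epas1. Epas1, a hypoxia-inducible factor gene that is prominent in endothelium, had 1053, 1119 and 956 in urothelium, against 12259, 25918 and 22608 in mesenchyme (log2 difference −4.16 ± 0.32, limma adjusted p = 1.05e-05). The endothelial markers given above were on the same side, and their part in Epas1 was not tested. Hif1a, the broadly expressed factor gene, had 22539, 12845 and 15441 in urothelium, against 7149, 12515 and 11463 in mesenchyme with no overlap, and did not pass (0.71 ± 0.31, limma adjusted p = 0.186). Its difference was 0.011 when its 4 probe sets were averaged, 0.46 without mesenchyme 1 and 0.23 without both urothelium 5 and mesenchyme 1.

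The mitophagy gene Bnip3 had 52627, 25997 and 16986 in urothelium, against 12759, 9397 and 9770 in mesenchyme (1.43 ± 0.38, limma adjusted p = 0.0267). That call was lost without the intensity trend, and without mesenchyme 2 (1.35), mesenchyme 4 (1.38), urothelium 5 (0.99) or urothelium 7 (1.5). P4ha1, a collagen prolyl hydroxylase gene, and Adm, which encodes the vasodilator peptide adrenomedullin, were lower in urothelium, with log2 differences of −1.92 ± 0.29 and −2.04 ± 0.38 (limma adjusted p = 0.000993 and 0.00365), the first being −1.18 in the mean of its probe sets. Car9, a carbonic anhydrase gene, was near the threshold (−1.5 ± 0.45, limma adjusted p = 0.0472) and lost its call in 9 of the 13 alternatives that kept it, among them both other pseudocounts. Vegfa, the endothelial growth factor gene, had 301, 566 and 1465 in urothelium, against 623, 4145 and 2080 in mesenchyme and did not pass (−1.41 ± 0.68, limma adjusted p = 0.234), but was past the test without mesenchyme 1 (−2.13) and when its probe sets were averaged (−1.26). It was −0.80 without mesenchyme 2 and −0.92 without urothelium 5.

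**Figure D4:**
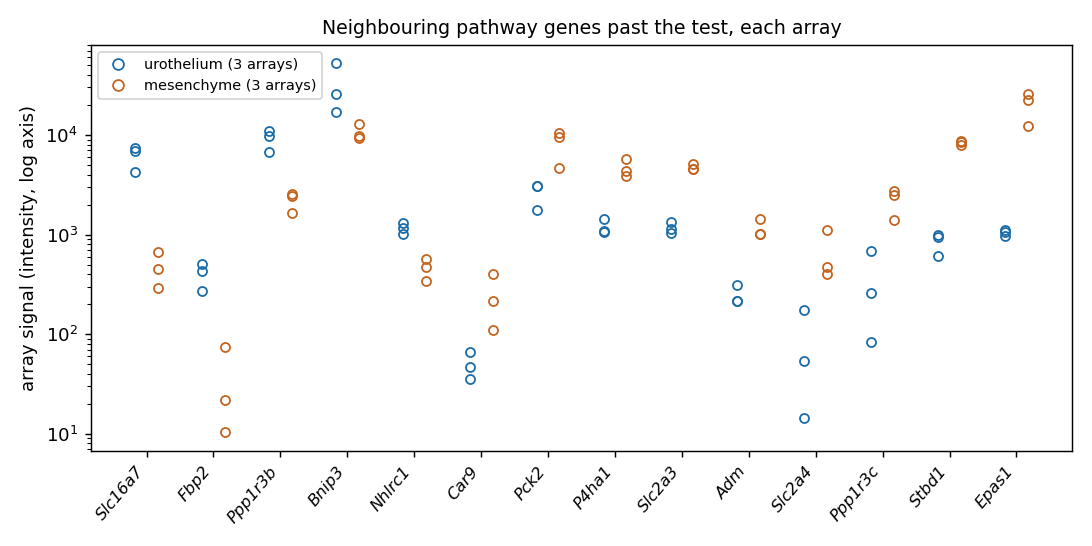
Array signal (intensity, log axis) of the 14 neighbouring genes past the test, ordered from the highest log2 difference (Slc16a7, 3.61) to the lowest (Epas1, −4.16), with urothelium arrays in blue left of mesenchyme arrays in orange. No gene shown has overlapping arrays.

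Within a compartment, some members had their lowest or highest signal on the same arrays, as many of all genes did. Hk1, Pfkl, Tpi1, Pkm, Pfkfb4, Pdk2, Pdk3 and Pygb had their lowest signal on both urothelium 5 and mesenchyme 1, the arrays with the highest beta-actin ratio, although mesenchyme 1 had the lowest Gapdh ratio of the mesenchyme arrays. These are 8 of 31 members, or 25.8%, against 20.9% of all genes. Pgk1, Pgam1, Ldha, Ldhb, Pfkfb2, Pfkfb3, Pdk4, Pdha1, Pdhb and Ugp2 had their highest signal on both, which makes 10 of 31, or 32.3%, against 16.9% of all genes. Both lists rest on the probe set used for each gene. Within mesenchyme, another probe set of Pgk1, of Ldhb and of Pdha1 was lowest on mesenchyme 1, at 9062.5, 10838 and 9580. The remaining Pgk1 and Ldhb probe sets were highest there. Pfkl lay furthest from its compartment means, at −0.80 on urothelium 5, 1.36 on urothelium 8, −1.59 on mesenchyme 1 and 1.17 on mesenchyme 2 on the log2 scale. The part of RNA quality in these deviations was not tested. Of 5 members past the test, Eno2 and Aldoc had their lowest urothelial signal on urothelium 5 and their highest mesenchymal one on mesenchyme 1. Deviations from the compartment mean ran from −0.47 to 0.39 for Pfkm, −0.45 to 0.53 for Pygl and −0.67 to 0.52 for Eno3. They ran from −0.77 to 0.58 for Aldoc and −0.74 to 0.87 for Eno2.

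**Figure D5:**
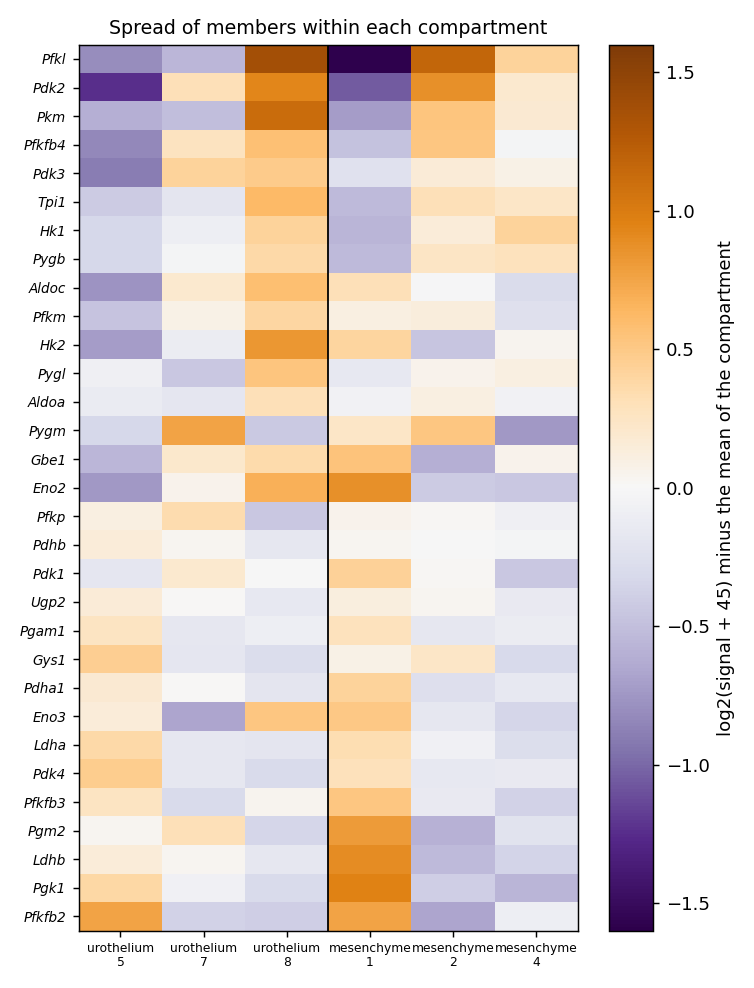
Deviation of each of 31 members (rows) on each array (columns, urothelium left of mesenchyme) from the mean of its compartment, as log2(signal + 45), in colour from −1.6 to 1.6. Rows are ordered by the sum of the deviations on urothelium 5 and mesenchyme 1, so that Pfkl, Pdk2 and Pkm, low on both, are at the top and Pfkfb2, Pgk1 and Ldhb, high on mesenchyme 1, are at the bottom.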

How the data were processed

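Gene expression was measured on 6 Affymetrix arrays, 3 of urothelium and 3 of mesenchyme. The authors deposited 1 linear intensity for each of 45101 probe sets, obtained with GCOS, per the submitters' processing notes. Which algorithm it ran is not given in the sources used here. Each array had a mean of 1500 after 2% was trimmed, so no further scaling was done; the number of arrays limits the precision. Genes were named by the platform annotation: 34945 probe sets had a single symbol after 64 controls were left out, 932 had several and 9160 none, and RefSeq matched 34741 by Entrez identifier and changed 0 symbols. The probe set with the highest mean stood for each of 18193 genes.

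From these values log2(signal + 45) was computed, 45 being their 25th percentile, and limma 3.58.1 in R 4.3.3 was fitted with the compartment as factor and an intensity trend. P-values were adjusted over all genes by Benjamini and Hochberg, with a threshold of 0.05; the fit was checked on simulated data. Isozyme pairs were set against each other by an exact permutation test. Members past the test and their isozyme families were named with values on every array. Neighbouring genes were named where past the test, plus Slc2a1, Hif1a, Vegfa, Mpc1 and Ppp1r3d. Members and lists were chosen with earlier results of these data known. Alternatives were other pseudocounts (1 and 179), scalings, a filter on dim genes, the mean of probe sets, no trend and fewer arrays. No batch is given in the sources used here, and no genome build for the arrays.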

Additional observations from a re-analysis of the deposited data

How the results depend on the processing

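Over 14 alternatives the 49 single genes gave 678 values, of which 611 kept their direction and their side of the threshold, 34 lost the call, 13 gained one and 20 changed sign; no gene past the test changed sign. Members higher in urothelium numbered 1, and 2 with arrays centred on their medians or without both urothelium 5 and mesenchyme 1, and 0 to 2 when 1 array was left out (0 without mesenchyme 4, urothelium 7 or urothelium 8, 2 without mesenchyme 1). Neighbouring genes higher in urothelium numbered 5, 9 with median centring and 3 to 5 without 1 array (3 without mesenchyme 2, mesenchyme 4, urothelium 5 or urothelium 7). Of all genes, 1055 were higher in urothelium, 1689 with median centring, 1225 without both arrays and 660 to 1059 without 1 array. Isozyme pairs without overlap numbered 7, and 12 without both arrays, where fewer arrays make overlap rarer by construction. Median centring moved the median log2 difference of all genes by 0.38, quantile normalization by 0.11; with centring the split of members past the test, higher in urothelium and in mesenchyme, was 2 and 3 in place of 1 and 4, and of neighbouring genes 9 and 8 in place of 5 and 9. Aldoc, Eno2, Eno3 and Pygl were past the test under both scalings, and Pfkm with quantile normalization but not with centring. Genes not past the test whose sign turned were, with centring, Tpi1 (0.12), Pfkfb4 (0.008), Pdk3 (0.022), Gys1 (0.23) and Mpc1 (0.22), and Ugp2 with quantile normalization (−0.055) and in the mean of probe sets (−0.13), and Pfkl without both arrays (−0.21). Without 1 array, Ugp2 lay between −0.047 and 0.11, Pfkl between −0.61 and 0.77, Pygb between −0.022 and 0.41, Pdk2 between −0.95 and 0.20, Pgk1 between −0.034 and 0.73, Mpc1 between −0.44 and 0.17, Pfkfb4 between −0.66 and 0.041 and Pdk3 between −0.60 and 0.083. The cause was not tested. No paired analysis was possible because urothelium and mesenchyme share no replicate number. Dim probe sets (Eno2 in urothelium, Pygm, Pdk2) sit near background, and with the median signal as pseudocount Eno2 differed by −1.79.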
